A study of Mus musculus with 76 samples.

Results

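Of 75 single macrophages from the mouse atrioventricular (AV) node, 42 held at least 1 transcript typical of heart muscle cells and 33 held none. The AV node slows the electrical impulse of the atria and passes it on to the ventricles. A cell was placed in the class with cardiomyocyte transcripts when any of Ttn, Myh6, Tnnt2 or Tnni3 was above 0 CPM (reads per 1000000 reads assigned to genes), and in the class without when all 4 genes were at 0. The 42 cells were 56.0% of the total, with an exact 95% Clopper-Pearson interval of 44.1% to 67.5% that covers the sampling of cells only. The members were thus chosen by the measured CPM of these 4 genes, whose levels are given below as a description.

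All cells came from untreated wild-type (WT) mice of the strain C57BL/6J, so the study held 1 group and no control arm. The triangle of Koch was cut out of perfused hearts and digested with enzymes. Living cells with high CD45, CD11b and F4/80, low to intermediate Ly6C and low lymphoid, neutrophil and erythroid markers were sorted. Each was captured in a chamber of a Fluidigm C1 chip, and its cDNA was amplified and sequenced. The labels name no animal, chip or age, so the cells cannot be tied to animals and count as 1 sample. No test between the classes was possible, and no p-value is given: the values describe these cells.

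Ttn encodes titin, the giant spring protein of the sarcomere, and Myh6 the myosin motor of the atrial and adult mouse ventricular muscle cell. Tnnt2 and Tnni3 encode the cardiac troponins T and I, which place contraction under the control of calcium. Macrophages do not build sarcomeres. Resident macrophages of the heart lie between the muscle cells and are known to take up material that these cells shed and to clear dying cells. In a single-cell preparation, RNA from broken muscle cells can also enter a chamber with the captured cell. These are background, and neither route was tested here.

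Most of the cells with cardiomyocyte transcripts held few of them. Over the 4 genes together the 42 cells held 1 to 1648 estimated reads, with a median of 7, and the summed level ranged from 0.2 to 821.8 CPM with a median of 5.35 CPM. The class of 6 cells rested on a single read, worth 0.2 to 3.5 CPM, and 12 cells held at most 3 reads. At the other end 16 cells held at least 10 reads, 13 cells had 1 of the genes at 10 CPM or more, and 6 cells had 1 at 100 CPM or more. In a cell without, a count of 0 allows up to 3 reads of a gene, which is 0.480 CPM in the deepest and 11.1 CPM in the shallowest of these cells. The summed level of 13 cells with cardiomyocyte transcripts lay above that highest limit. The classes thus meet at the threshold, and a cell just inside it and a cell just outside it can differ by 1 read.

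Ttn was the most widely seen of the 4, in 26 cells (34.7% of 75, interval 24.0% to 46.5%). Where it was above 0 its level ranged from 0.3 to 47.8 CPM with a median of 2.45 CPM, and in 6 cells it was a single read. Myh6 was above 0 in 22 cells (29.3%, interval 19.4% to 41.0%) and reached 429.6 CPM, or an estimated 1290 reads, against a median of 1.75 CPM. Its high values came from few cells, since 3 cells lay at 100 CPM or more. Tnnt2 was seen in 10 cells and reached 781.4 CPM in 1 cell, while its median there was 1.75 CPM. Tnni3 was seen in 8 cells, between 1.1 and 472.1 CPM with a median of 7.65 CPM. High values lay in part in different cells for different genes: most of the 13 cells with a gene at 10 CPM or more had a single such gene. Some met in the same cell. The cell with the highest Ttn held Myh6 at 326.7 CPM, and the cell with the highest Tnnt2 held Tnni3 at 40.4 CPM. The highest Myh6 and the highest Tnni3 each came from another cell.

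**Figure D1:**
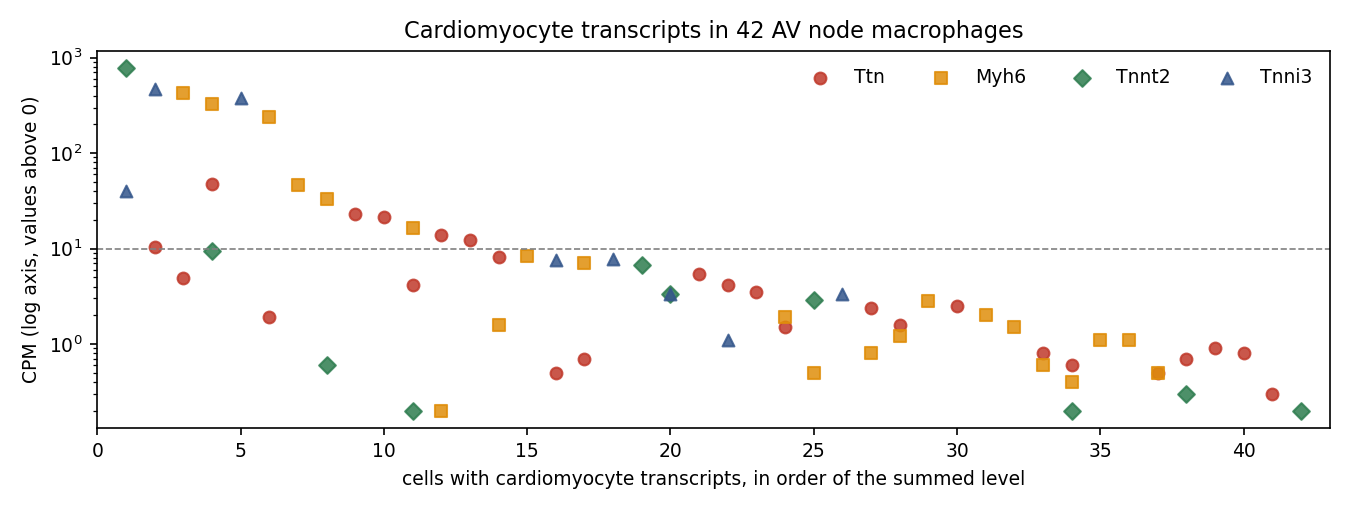
CPM of Ttn, Myh6, Tnnt2 and Tnni3 (log axis, values above 0) in each of the 42 cells with cardiomyocyte transcripts, in order of their summed level; the dashed line marks 10 CPM. The summed level ran from 821.8 CPM in the first cell to 0.2 CPM in the last, and 29 cells had all 4 genes below 10 CPM.

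Pairs of the 4 genes differed in how often they shared cells. A single 1 of the 4 genes was above 0 in 21 cells, 2 were in 18 cells, 3 were in 3 cells, and no cell held all 4. Ttn stood alone in 9 cells, Myh6 in 7, Tnni3 in 3 and Tnnt2 in 2. Myh6 was seen in 13 of the 26 cells with Ttn (50.0%, interval 29.9% to 70.1%) and in 9 of the other 49 cells (18.4%, interval 8.76% to 32.0%). Tnnt2 was seen in 5 of the 22 cells with Myh6 (22.7%, interval 7.82% to 45.4%) and in 5 of the other 53 (9.43%, interval 3.13% to 20.7%). For both of these pairs the intervals overlap. No cell held both Myh6 and Tnni3, although 0 of 8 cells with Tnni3 allows a share of up to 36.9%. Ttn and Tnnt2 shared 4 cells, Ttn and Tnni3 shared 3, and Tnnt2 and Tnni3 shared 2.

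Depth differed little between the classes. The estimated depth of cells with cardiomyocyte transcripts ranged from 259558 to 6474590 reads with a median of 2118890, and that of cells without from 269280 to 6244150 with a median of 2178170. The median number of genes above 0 was 3191.5 with and 3129 without. The share of cells with was 55.3% among the 38 cells at or above the median depth and 56.8% among the 37 below it. Thinning every cell to 250000 reads, close to the depth of the shallowest, left 26 of 75 cells with a cardiomyocyte transcript (34.7%, interval 24.0% to 46.5%). The share of 56.0% therefore belongs to these depths. Every cell was sorted as a macrophage, so no captured cell type that should lack these genes gives the level of free RNA, and its part in the classes was not tested.

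**Figure D2:**
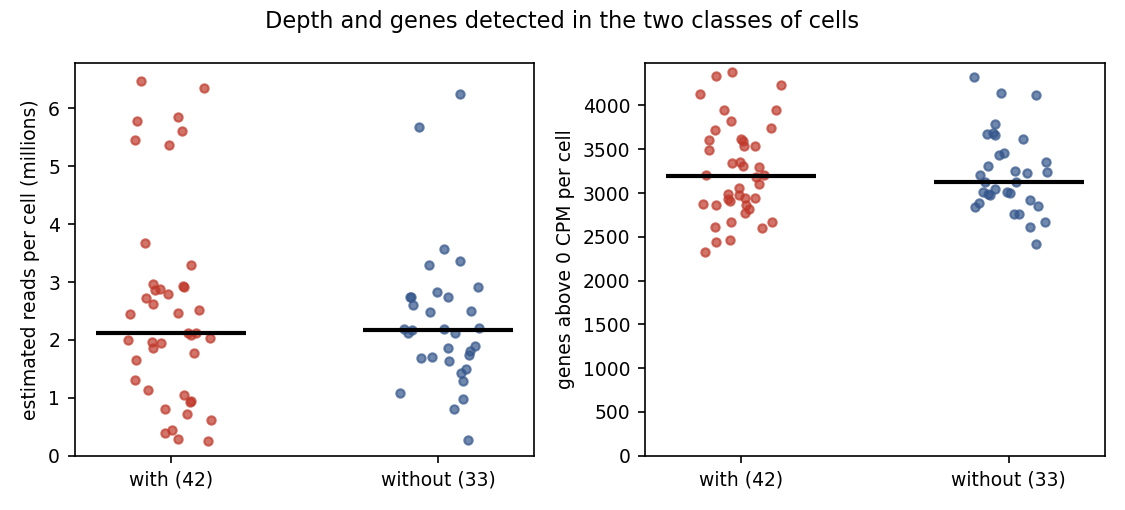
Estimated reads per cell in units of 1000000 (left) and genes above 0 CPM per cell (right) in the 42 cells with and the 33 cells without cardiomyocyte transcripts; each point is a cell and each bar the median. The medians were 2118890 and 2178170 reads, and 3191.5 and 3129 genes.

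Few other genes of heart muscle had values, and none of them differed between the classes by the size used below. Of 12 further genes of the thick filament and of 15 genes of the mitochondrial genome none had values, so they were not analysed here. Values were present for 4 of 30 thin filament and Z disc genes, 6 of 28 excitation and calcium genes, 17 of 33 metabolism genes and 3 of 19 secreted factors and transcription factors. None of those compared differed by 2 or more on the log2 scale used throughout, the mean of log2(CPM + 1) in cells with minus that in cells without. In either direction 1.11% of all genes compared did, so finding none among so few genes is near that share. Tpm1, which encodes tropomyosin, was above 0 in 9 cells with and 10 cells without and differed by 0.10. Atp2a2, the calcium pump of the sarcoplasmic reticulum that other cells express too, was above 0 in 21 and 20 cells and differed by -0.34. Slc25a4, the mitochondrial ADP/ATP carrier of muscle, was highest of these genes at 1.49, with a median of 9.75 CPM against 0.4 CPM. Adssl1, a muscle enzyme of purine metabolism, was lowest at -1.55. The label of the classes rests on the 4 genes that made them.

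The comparison covered the 8347 genes above 0 in at least 8 cells, with the 4 genes left out. By the size rule of 2 or more, 63 genes (0.755% of those compared) were higher and 30 (0.359%) were lower in cells with cardiomyocyte transcripts. The median difference over all genes was 0.045, with quartiles of -0.29 and 0.43, and 54.2% of genes lay above 0. Centring each cell on 467 widely detected genes moved every gene's difference, and so the median over all genes, by -0.27. The split then became 29 higher and 53 lower, or 35.4% higher in place of 67.7%. A shift of that size cannot carry a gene past the size rule across 0. The direction of the 63 and the 30 genes was thus fixed under centring and is no check of it. For every one of the 8347 genes the ranges of the classes overlapped. No single gene separated them.

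Genes of long-lived tissue macrophages were higher in cells with cardiomyocyte transcripts. Of 19 compared genes of this list, 18 lay above 0 and 7 were higher by 2 or more, against 0.755% of all genes. The list's median difference was 1.90. Its summed level had a median of 37583 CPM with (898.6 to 63264) and 17189 CPM without (735.3 to 63475.8). Folr2, a folate receptor that marks resident macrophages, showed the largest positive difference of all genes. Its level ran from 0.8 to 7868.1 CPM with a median of 1918.3 CPM in cells with, and from 0.7 to 4124.8 CPM with a median of 15.8 CPM in cells without. It differed by 3.94, with a mean of 2432 ± 1871 CPM (SD, n = 42 cells) against 963 ± 1302 CPM (n = 33). Folr2 reached 10 CPM in 38 of 42 cells with and in 18 of 33 without, so that the cells without held both high and low cells.

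Lyve1, the hyaluronan receptor of perivascular macrophages and lymphatic vessels, ran from 0.3 to 6153.6 CPM with a median of 953.2 CPM in cells with. In cells without it ran from 0 to 6708.7 CPM with a median of 3.8 CPM, and the difference was 3.45. The single highest cell was thus one without. Stab1, a scavenger receptor that also binds phosphatidylserine on dying cells, had medians of 448.1 CPM and 6.1 CPM and differed by 3.41. Gas6, the ligand that bridges phosphatidylserine to the Tyro3, Axl and Mertk receptors, had medians of 131.9 and 1.7 CPM and differed by 3.03. Pf4, a chemokine of platelets and resident macrophages, differed by 2.80 and Cbr2, a carbonyl reductase of resident macrophages, by 2.77. Pf4 was the only 1 of 13 platelet and erythroid markers with values. Timd4, a phosphatidylserine receptor of self-renewing macrophages, differed by 1.90 and Cd163, the haemoglobin scavenger receptor, by 1.61, both under the size rule. Mrc1, the mannose receptor, was high in both classes at medians of 3040.6 and 2419.3 CPM and differed by 0.77. Clec10a, at -0.27, was the 1 gene of the list below 0.

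**Figure D3:**
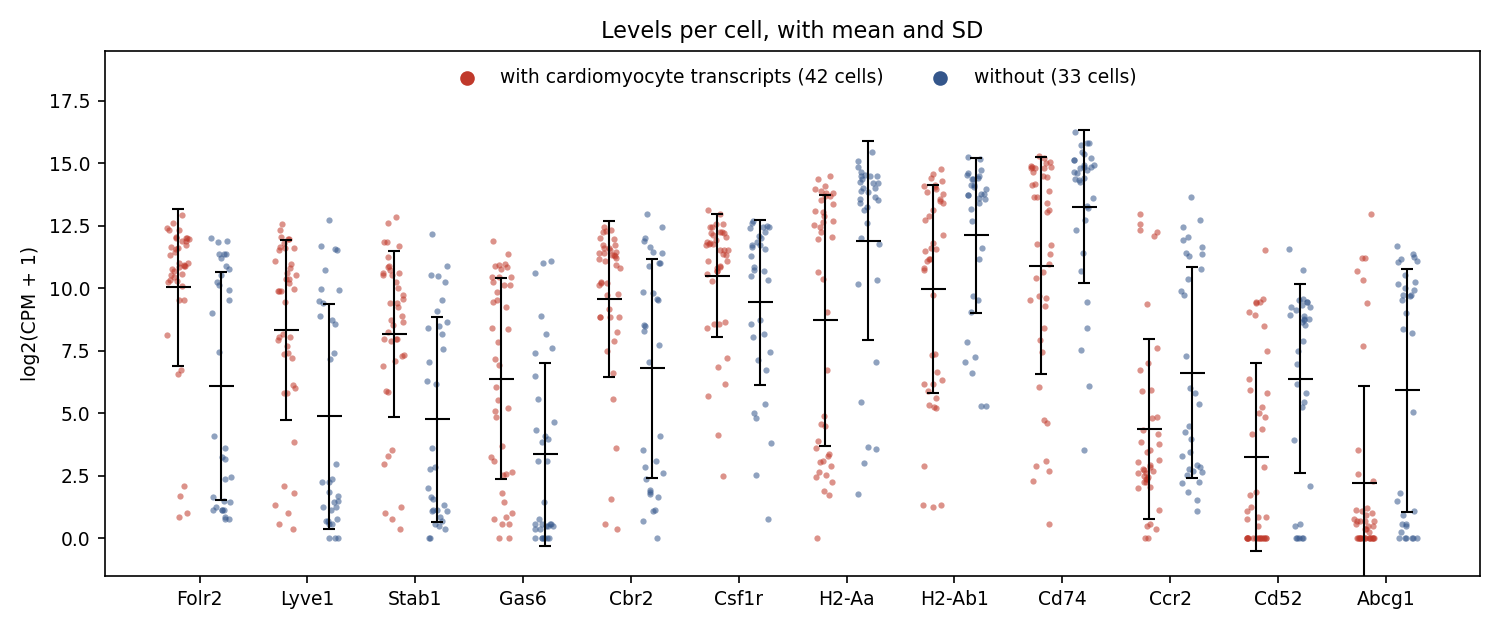
Log2(CPM + 1) of 12 genes in each of the 42 cells with (red) and 33 cells without (blue) cardiomyocyte transcripts, with the mean and SD of each class. Folr2, Lyve1, Stab1, Gas6 and Cbr2 lay higher and the MHC class II genes, Ccr2, Cd52 and Abcg1 lower in the cells with, from 3.94 for Folr2 to -3.69 for Abcg1. Csf1r differed by 1.07, and the classes overlapped in each gene.

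MHC class II genes, whose products present peptides to T helper cells, were lower in cells with cardiomyocyte transcripts. All 10 compared genes of the list lay below 0, and 5 were lower by 2 or more, against 0.359% of all genes. The list's median difference was -1.91. The summed level had a median of 12948 CPM with (8.0 to 102827) and 62115 CPM without (220.8 to 174462). H2-Aa, the alpha chain of the I-A molecule, ran from 0 to 23055.3 CPM with a median of 2788.6 CPM in cells with, and from 2.4 to 44379.5 CPM with a median of 12986.8 CPM in cells without. It differed by -3.19, and reached 10 CPM in 30 of 42 and 31 of 33 cells. Most cells of both classes thus held H2-Aa, and those nearly free of it were mainly cells with cardiomyocyte transcripts. H2-DMb1, a chain of the peptide editor H2-M, differed by -2.73, the invariant chain gene Cd74 by -2.36, H2-Eb1 by -2.32 and H2-Ab1 by -2.16. Ciita, the master coactivator of the class II promoters, was above 0 in 21 of 42 and 19 of 33 cells and differed by -0.91.

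Class II promoters share an arrangement of short elements, among them the Y box, an inverted CCAAT motif bound by NF-Y that lies next to the X box bound by RFX. They are shown because 3 of the 5 class II genes past the size rule had the motif in a matched window. The letters TGATTGG, searched on both strands with no overlap with another motif, were found in the RefSeq windows (build GRCm38.p6, 250 bases before to 50 after the gene start) of 6 of 7 matched class II genes. Counted by window, they were found in 6 of 8 class II windows and in 7.82% of all 32851 windows. The stretches below are printed 5′ to 3′ on the gene's strand with these letters in capitals: H2-Aa at chr17:34287822-34287918 on the minus strand, H2-Eb1 at chr17:34305761-34305857 and H2-DMb1 at chr17:34153083-34153179, both on the plus strand.
H2-Aa: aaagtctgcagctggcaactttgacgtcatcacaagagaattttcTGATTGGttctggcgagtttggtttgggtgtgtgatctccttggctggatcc
H2-Eb1: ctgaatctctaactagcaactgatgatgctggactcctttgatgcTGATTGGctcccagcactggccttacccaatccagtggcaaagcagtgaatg
H2-DMb1: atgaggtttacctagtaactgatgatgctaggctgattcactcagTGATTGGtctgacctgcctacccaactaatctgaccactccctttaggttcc
The motif did not follow the size of the difference, and a match is a description of the letters only. H2-DMa, which differed by -1.66, had no match in its windows, and H2-Oa and H2-Ob, which differed by -0.38 and -0.23, had one each.

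Genes of monocyte-derived macrophages lay on the same side as MHC class II. Of 8 compared genes 7 lay below 0, with a median of -0.92, and 2 were lower by 2 or more, against 0.359% of all genes. Cd52, a small glycosylated surface protein of leukocytes, had a median of 1.25 CPM with and 369.5 CPM without and differed by -3.13. Ccr2, the chemokine receptor by which monocytes leave the blood, ran from 0 to 7942.6 CPM with a median of 7.0 CPM in cells with. In cells without it ran from 1.1 to 13014.3 CPM with a median of 40.8 CPM, and the difference was -2.25. Lsp1, a leukocyte actin-binding protein, differed by -1.74 and the S100 protein gene S100a6 by -0.98. Nr4a1, at 0.13, was the exception.

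Counted the other way round, the share of cells with cardiomyocyte transcripts differed with the macrophage's own genes. Folr2 had the largest positive difference of all genes in these same cells, so unlike shares follow from it. The shares restate the comparison above and are no separate evidence. Among the 53 cells with Folr2 at 100 CPM or more, 37 held cardiomyocyte transcripts (69.8%, interval 55.7% to 81.7%), against 5 of 22 cells below it (22.7%, interval 7.82% to 45.4%). For Lyve1 the shares were 31 of 45 (68.9%, interval 53.4% to 81.8%) and 11 of 30 (36.7%, interval 19.9% to 56.1%), and these intervals overlap. For Ccr2 they ran the other way, with 9 of 23 (39.1%, interval 19.7% to 61.5%) and 33 of 52 (63.5%, interval 49.0% to 76.4%), and these overlap too. The median depths on either side of each of these levels lay between 2103260 and 2209940 reads. Lyve1 and H2-Aa were also read together at 100 CPM. Cardiomyocyte transcripts were held by 15 of 20 cells with Lyve1 and without H2-Aa (75.0%), by 16 of 25 with both (64.0%), and by 9 of 28 with H2-Aa and without Lyve1 (32.1%, interval 15.9% to 52.4%). Cells with both genes were thus nearer in share to those with Lyve1 alone than to those with H2-Aa alone, although the intervals of 42.5% to 82.0% and 15.9% to 52.4% overlap.

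Folr2 and H2-Aa kept their direction for each of the 4 genes taken in turn, always against the same 33 cells. Folr2 was higher by 4.35 in the 26 cells with Ttn, by 4.69 in the 22 with Myh6, by 2.90 in the 10 with Tnnt2 and by 4.14 in the 8 with Tnni3. H2-Aa differed by -3.34, -2.62, -6.44 and -4.71 in the same order. The 10 cells with Tnnt2 held the least H2-Aa, with a median of 8.2 CPM and a range from 0 to 17592.7 CPM. Of the 19 resident genes 18 lay above 0 with Ttn, 19 with Myh6, 14 with Tnnt2 and 19 with Tnni3. The 5 below 0 with Tnnt2 included Mrc1 at -0.44. The median depths of the subsets were 2538930 reads with Ttn, 2668430 with Myh6, 2870470 with Tnnt2 and 1757530 with Tnni3. These subsets share cells and all share the comparison group.

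The number of cardiomyocyte genes and their level were read separately. In cells with 1 of the 4 genes the resident list's median difference was 1.38 and the MHC class II list's -0.98. In cells with more than 1 they were 3.11 and -2.67, at a median depth of 2615400 reads against 1951600. H2-Aa had a median of 6371 CPM in cells with 1 of the genes and 21.3 CPM in cells with more. In the 13 cells with 1 of the genes at 10 CPM or more, Folr2 ran from 730.3 to 7868.1 CPM and differed by 5.43. It was above 0 in all 75 cells of both classes. H2-Aa differed less in those 13 cells, by -2.40, than in the 29 cells below 10 CPM, by -3.54. The median depth was 2868210 reads in the 13 cells and 2111930 in the 29. The 8 cells whose class rested on 1 or 2 reads also stood on that side, with list medians of 1.33 and -2.40. Level and number therefore did not order the cells in the same way for MHC class II.

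**Figure D4:**
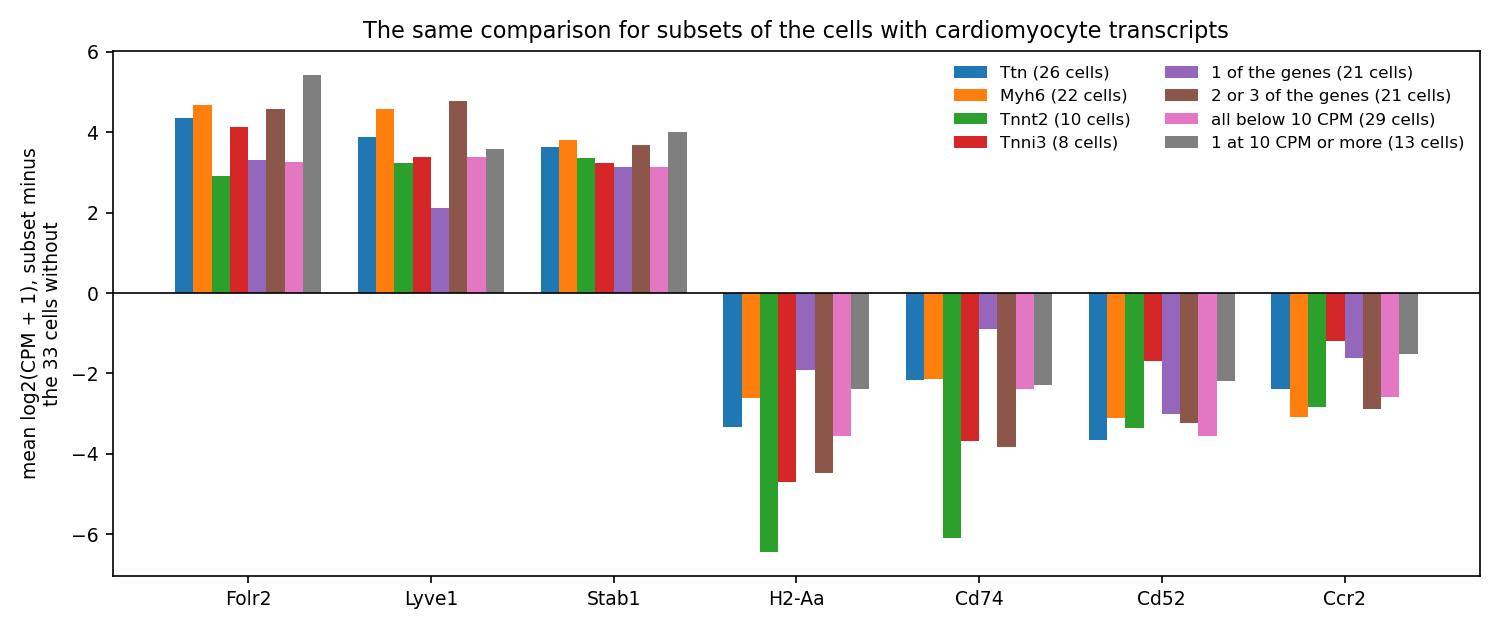
Difference of mean log2(CPM + 1) from the 33 cells without, for 7 genes in subsets of the cells with cardiomyocyte transcripts (coloured bars; the subsets overlap). Folr2, Lyve1 and Stab1 lay above 0 and H2-Aa, Cd74, Cd52 and Ccr2 below 0 in all 8 subsets, with H2-Aa lowest at -6.44 in the 10 cells with Tnnt2.

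General macrophage genes differed less. Of 18 compared identity genes 14 lay above 0 (54.2% of all genes did), with a median of 0.49. Among them 3 were higher by 2 or more, against 0.755% of all genes. The complement subunit genes C1qa and C1qc were higher by 2.12 and 2.11 and the transcription factor gene Maf by 2.05. Csf1r, the growth factor receptor on which macrophages depend, had medians of 2799.4 and 1712.3 CPM and differed by 1.07. Lyz2, the lysozyme gene of myeloid cells, had medians of 21783.9 and 18754.8 CPM and differed by 0.18. Cx3cr1, the fractalkine receptor, went the other way at -1.95.

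Genes for the clearance of dying cells were listed by step. Among 28 receptors and bridging molecules 5 were higher by 2 or more, against 0.755% of all genes. With a median of 0.36, 14 of the 28 lay above 0 (54.2% of all genes did). The 5 were Stab1, Gas6, C1qa, C1qc and S1pr1, a receptor for a lipid that dying cells release, which differed by 2.09. Stab1 and Gas6 are also on the resident list, and C1qa and C1qc on the identity list, so these counts overlap. The tyrosine kinase receptor Mertk differed by 1.38 and its relative Axl by -1.36. Mfge8, another bridging molecule, was above 0 in 6 and 5 cells and differed by -0.22. Of 35 genes of the engulfment and phagosome machinery none passed the size rule in either direction (1.11% of all genes did), 17 lay above 0 and the median was -0.09. Rab14, a GTPase of the phagosome, was highest at 1.93 and Rac2, a GTPase of the leukocyte actin skeleton, lowest at -1.62. Among 25 genes of autophagy and LC3 conjugation 20 lay above 0 (54.2% of all genes did), with a median of 0.35, and none passed. After centring 14 of the 25 lay above 0, with a median of 0.09, and 15 did when a cardiomyocyte gene was required at 10 CPM. Gabarap, an LC3 relative, was highest at 1.69.

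Lysosomal genes lay slightly above the median of all genes. Of 44 compared 34 lay above 0 (54.2% of all genes did), with a median of 0.30, and 2 were higher by 2 or more, against 0.755% of all genes. They were Hexa, a chain of the enzyme that degrades gangliosides, at 2.07 and Cd63, a membrane protein of late endosomes, at 2.03. The cathepsin gene Ctsb was abundant in both classes, with medians of 10551.8 and 6087.3 CPM, and differed by 0.77. After centring 22 of the 44 lay above 0 and the list's median was 0.03, when that of all genes was -0.22.

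Of 12 iron and haem genes 11 lay above 0 (54.2% of all genes did), with a median of 0.78. Among them 2 were higher by 2 or more, against 0.755% of all genes. Blvrb, which reduces biliverdin, had medians of 528.0 and 75.2 CPM and differed by 2.60. Tfrc, the transferrin receptor, was above 0 in 22 of 42 and 12 of 33 cells and differed by 2.31. Hmox1, which opens the haem ring, differed by 1.36. The ferritin chain gene Fth1 was high in every cell, at medians of 4475.9 and 4522.3 CPM, and differed by 0.17.

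Lipid genes as a list had a median of 0.28, but 1 of them was the lowest gene of all those compared. Abcg1, which exports cholesterol to lipoproteins, ran from 0 to 8004.7 CPM with a median of 0.45 CPM in cells with. In cells without it ran from 0 to 3314.1 CPM with a median of 332.8 CPM, and the difference was -3.69. It reached 10 CPM in 8 of 42 and 19 of 33 cells, and the single highest cell was one with cardiomyocyte transcripts. Its partner in cholesterol export Abca1 differed by 1.22, and Apoe, the apolipoprotein that accepts the cholesterol, by 1.98.

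Among genes of inflammation, interferon response, nucleic acid sensing, glycolysis and the immediate early and heat shock response, 1 passed the size rule. Ccl8, a chemokine for monocytes and lymphocytes, was the only 1 of 24 inflammatory and repair genes past it, at 2.03, against 0.755% of all genes. None of 17 interferon genes, 14 nucleic acid sensing genes, 14 glycolysis genes and 28 immediate early and heat shock genes passed, with list medians of 0.53, -0.03, -0.35 and -0.25. In either direction 1.11% of all genes passed, so finding none among so few genes is near that share. Irf7, a transcription factor of the interferon response above 0 in 18 of 42 and 4 of 33 cells, differed by 1.81. Myd88, an adaptor of the Toll-like receptors, differed by -1.61.

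Outside the lists, the genes with the largest differences in the same direction in deeper, shallower and depth-matched cells were as follows. Tmem37 had a median of 384.95 CPM with and 2.1 CPM without and differed by 3.26. Mfsd1, a lysosomal membrane transporter, reached 10 CPM in 24 of 42 cells with and in 2 of 33 without, where its highest value was 110.8 CPM, and differed by 3.24. Further on the higher side were Spnb2, which encodes a spectrin, at 3.07, the peripheral myelin protein gene Pmp22 at 2.82, the sorting nexin gene Snx2 at 2.73 and the amyloid precursor gene App at 2.67. Cmah, which makes a sialic acid that mice have and humans lack, differed by 2.67, the guanylate-binding protein gene Gbp7 by 2.64 and the chemokine gene Ccl24 by 2.61. Gbp7 reached 10 CPM in 26 of 42 cells with and 8 of 33 without, but its mean CPM was nearly equal, 462.3 and 454.8. On the lower side were the phospholipase B-like gene Plbd1 at -2.70, the cyclooxygenase gene Ptgs1 at -2.54, the G protein gene Gnai3 at -2.44 and the transcription factor gene Cebpg at -2.35. The actin regulator gene Coro1b at -2.34, Mier1 at -2.33, Cdc42se2 at -2.31 and the ubiquitin ligase adaptor gene Spop at -2.29 followed. Rnase6, a ribonuclease of myeloid cells, was above 0 in 9 of 42 and 18 of 33 cells and differed by -2.29.

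The differences were of like direction at different depths. All 63 higher genes lay above 0 among both the deeper and the shallower cells, 57 of them by 1 or more in each. Of the 30 lower genes 29 lay below 0 in both, 28 of them by 1 or more, and Slc35a5 was the exception at 0.14 in the deeper cells. In 30 pairs of a cell with and a cell without matched on depth, all 63 and all 30 differed by 1 or more. These are the same cells as in the comparison, so the counts describe it and are no separate evidence.

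Markers of other cell types were mostly without values. None of 10 smooth muscle cell or pericyte markers and none of 10 adipocyte or mesothelium markers had any. The endothelial marker Eng was above 0 in 10 of 42 cells with and 6 of 33 without. Eng was the only 1 of 17 endothelial markers with values. Any of 3 neuronal or Schwann cell markers was above 0 in 38 of 42 and 23 of 33 cells, with summed medians of 7.2 and 2.2 CPM, but the 3 differed in direction. Cnp, a myelin enzyme, differed by 1.79, the myelin protein gene Mbp by -0.74 and the glial protein gene S100b by -0.08. Any of 3 B cell markers was above 0 in 41 of 42 and 31 of 33 cells, with summed medians of 367.8 and 128.1 CPM. Of these Ighm differed by 0.14, Ebf1 by 0.08 and Cd79b by 0.29. Csf3r, the only 1 of 10 neutrophil markers with values, was above 0 in 9 of 42 and 7 of 33 cells. Any of 2 T or NK cell markers was above 0 in 16 of 42 and 17 of 33 cells. Of 5 dendritic cell genes, Siglech differed by 1.93 and Batf3 by -1.91. The fibroblast genes Vim, Gsn and Fn1 had summed medians of 526.1 and 1214.8 CPM, and macrophages express these too. The part of other cells in the classes was not tested.

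**Figure D5:**
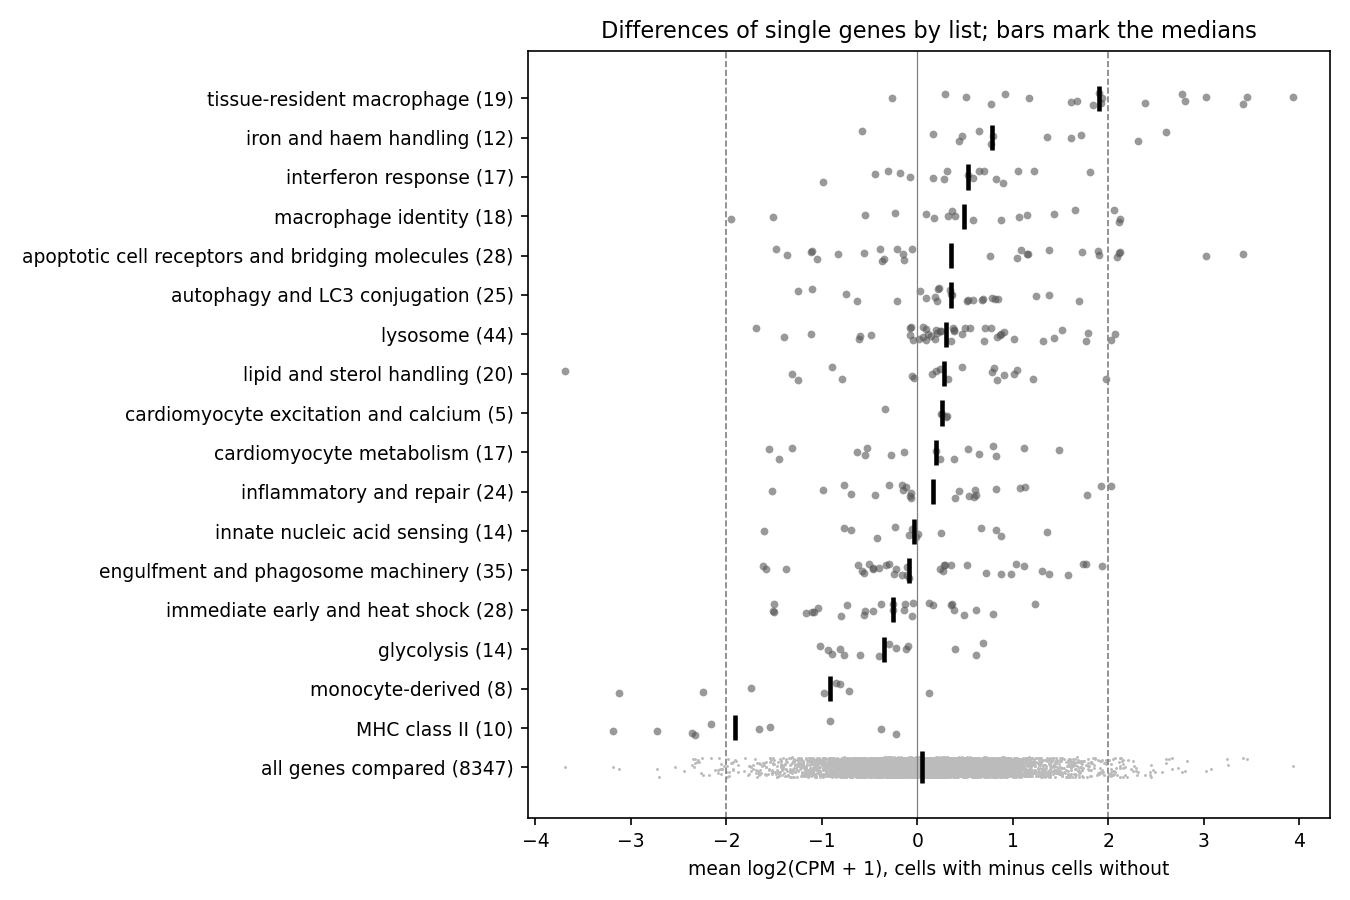
Difference of mean log2(CPM + 1), cells with minus cells without cardiomyocyte transcripts, for each compared gene of 17 lists (grey points, number of genes in brackets) and for all 8347 genes compared; bars mark medians and dashed lines the size rule of 2. The resident list had the highest median of these lists, 1.90, and the MHC class II list the lowest, -1.91.

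Y-linked transcripts show that male mice were among the donors. Cardiomyocyte transcripts were held by 37 of the 66 cells with a Y-linked gene above 0 (56.1%, interval 43.3% to 68.3%) and by 5 of the 9 without (55.6%, interval 21.2% to 86.3%), which is too few to show a difference or its lack. The single genes went apart, with Uty at 1.17, Eif2s3y at 0.79, Ddx3y at 0.10 and Kdm5d at -0.79.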

How the data were processed

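The table holds CPM that the authors deposited, rounded to 1 decimal, for 9235 genes in 76 libraries of 1 cell each, every gene above 0 in at least 6 libraries. STAR 2.3.0, HTSeq 0.6.0 and mm9 are named in the submitters' processing notes, with no further detail. The chemistry keeps no strand and has no molecular identifiers, so copies of 1 molecule count separately. Transcriptomes 13 and 19 were nearly identical (Pearson r = 0.978, against at most 0.421 in 2849 other pairs) and were averaged as 1 cell, one without cardiomyocyte transcripts. Symbols were matched to the reference annotation: 8378 were current, 743 older and 114 unmatched.

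The CPM of 1 read was estimated per library as the largest step that divided the low values (up to 60 steps) without remainder, within 0.051 CPM. In 31 libraries, all estimated at 2209945 reads or more, under 95% of low values lay within 0.1 of a whole read, since rounding is coarse against so small a step. They hold 19 of the 42 cells with cardiomyocyte transcripts and 3 of the 12 at 3 or fewer reads. Read numbers there are estimates, depths above 5000000 are the least certain, and no count model was fitted. Differences are of mean log2(CPM + 1), with a pseudocount of 1, and a gene is counted at a difference of 2 or more. Depth was handled by splitting at the median, pairing cells within 0.25 on the log2 scale of depth, and thinning to 250000 reads. All cells were kept, and doublets were not looked for. The scripts (Python 3.11.15, numpy 2.4.6, pandas 2.3.3, scipy 1.17.1) were tested on simulated data.

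The 4 genes, the 33 gene lists and the classes were chosen with earlier results of these data known. The genes named are, per direction, the 15 largest differences among genes counted, above 0 in 20 or more cells and at 1 or more in deeper, shallower and matched cells. Also eligible were every cardiomyocyte gene with values, the 3 most widely detected members of each other list, its members past the size rule, and the Y-linked genes. Part of these are printed, and list members outside the rule were chosen after their values were seen.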

Additional observations from a re-analysis of the deposited data

How the results depend on the processing

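The share of 56.0% of cells with cardiomyocyte transcripts became 17.3% with a gene required at 10 CPM, 28% with more than 1 gene required, 44% without Ttn and 34.7% after thinning. Of the counts of 63 higher and 30 lower genes, stricter or reduced classes gave 325 and 63 with a gene at 10 CPM, 177 and 48 with more than 1 gene, and 111 and 9 with classes made again after thinning. Lower genes numbered 14 without Ttn and 15 without Tnnt2, and higher genes 41 without Myh6. Fewer cells gave 184 and 155 in the shallower and 176 and 82 in the deeper cells, and depth-matched pairs gave 95 higher genes. On other scales the counts were 10 and 5 with a pseudocount of 10, 29 and 53 after centring, and 188 and 94 at a size of 1.5. The cause of these changes was not tested, except that the pseudocount shrinks and the smaller size admits more genes by construction. With 3 exclusions chosen after seeing the data the counts stayed between 55 and 86 higher and between 21 and 33 lower. They left out cells resting on 1 or 2 reads, cells with a gene at 100 CPM, or cells over 5000000 reads. Of 42 named genes past the size rule none changed direction in 882 alternative values. This is in part so by construction and by selection. Settings that only change the filter on genes leave each gene's value as it was. Centring moves every gene by -0.27, which cannot reverse a gene past the size rule. The 15 largest per direction were named only if they kept their direction in deeper, shallower and matched cells. Of all 30 lower genes, 29 stayed below 0 with a gene at 10 CPM and 29 in the deeper cells. All 63 higher genes stayed above 0 in both of these settings. The medians of the resident, MHC class II, monocyte-derived and identity lists kept their sign in 21 of 21 alternatives, between 1.33 and 3.11, -2.67 and -1.03, -1.45 and -0.59, and 0.23 and 1.11. Other list medians printed above changed sign: engulfment (-0.35 to 0.70), nucleic acid sensing (-0.30 to 0.48), glycolysis (-0.84 to 0.12). The interferon median was 0.03 in depth-matched pairs. No paired analysis was possible because all cells belong to 1 group. In the median cell 1 read is worth 0.470 CPM, which limits what a value of 0 can show.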

Other observations

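Siglech, a receptor of plasmacytoid dendritic cells that some tissue macrophages express, was noticed after its values were seen. It reached 100 CPM in 9 cells, and all 9 held cardiomyocyte transcripts (interval 66.4% to 100%), against 33 of the other 66 (50.0%, interval 37.4% to 62.6%). The median depth was 1652350 reads in the 9 cells and 2184620 in the others. At 10 CPM or more Siglech was seen in 12 of 42 cells with and in 1 of 33 without.

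For a pair of genes that vary strongly between these macrophages the shares lay close together, with wide intervals. Ighm, the immunoglobulin heavy chain gene, was at 100 CPM or more in 44 cells, of which 25 held cardiomyocyte transcripts (56.8%, interval 41.0% to 71.7%), against 17 of 31 below that level (54.8%, interval 36.0% to 72.7%). Retnla, a gene of alternatively activated macrophages, gave 16 of 28 (57.1%, interval 37.2% to 75.5%) and 26 of 47 (55.3%, interval 40.1% to 69.8%). Timd4, which differed by 1.90, gave 15 of 23 (65.2%, interval 42.7% to 83.6%) and 27 of 52 (51.9%, interval 37.6% to 66.0%).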
